A study of Saccharomyces cerevisiae with 18 samples.

Results

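The meiosis and sporulation genes described here were 42 listed symbols of Saccharomyces cerevisiae, from the regulators of meiotic entry to the enzymes of the spore wall. A member was any single-gene probe set of the deposited expression table whose annotated symbol was in that list. SPO69 is another name of REC8, so the 42 symbols stand for 41 genes of the 5449 genes on the array, each read by 1 probe set. RNA was measured on 18 Affymetrix yeast arrays from 3 strains described as ethanol tolerant: a diploid, a haploid labelled Mat a and a haploid labelled Mat alpha. Each strain grew in fermentors in yeast extract and peptone medium with glucose (100 g/L) and 0%, 3% or 7% ethanol (v/v), and total RNA was taken in mid-exponential phase. Every strain and ethanol level has 2 arrays, which makes 9 groups. The labels do not say that the 2 arrays came from separate cultures, so the p-values measure only the spread between these arrays, which may be technical. No sporulation medium is named for any group, and all cultures were growing when sampled.

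In budding yeast, entry into meiosis needs cells that carry both mating types and are starved. In haploid cells Rme1 represses IME1, the gene of the activator that opens the early genes together with the DNA-binding protein Ume6, and in diploid cells the repressor built from one protein of each mating type shuts RME1 off. Glucose also keeps IME1 low, and Ume6 and Sum1 hold the early and middle genes down during mitotic growth until Ime1 and Ndt80 act on them.

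The strain labels were checked against mating-type transcripts. The a1 gene, read as HMRA1, lay above background on 6 of 6 diploid arrays (31.4 to 57.5), 0 of 6 arrays of the haploid labelled a and 0 of 6 of the haploid labelled alpha. The alpha-factor gene MF(ALPHA)1 gave 10.4 to 17 in the diploid, 4080 to 5120 in the haploid labelled a and 3760 to 4970 in the haploid labelled alpha. STE2, the alpha-factor receptor gene of a cells, stayed at 18.5 to 27.8, 18.6 to 31.9 and 19.7 to 32.5 in the same order. All 4 alpha-specific markers were lower in the diploid than in the haploid labelled a. Against the haploid labelled alpha, the haploid labelled a had 3 of these 4 lower and 0 higher. Of the 7 a-specific markers it had 3 higher and 0 lower, where 27.8% of all genes were higher and 34.3% lower. The strain labelled a thus carried alpha-cell transcripts, though these markers were not alike in the 2 haploids. It is called "the haploid labelled a" below, and no mating-type contrast is drawn between the 2 haploids. Of the 22 marker genes of mating type, 17 were lower and 2 higher in the diploid than in the haploids. RME1 was at 2.78 to 6.9 in the diploid, above the background limit on 3 of 6 arrays, and at 432 to 1040 in the haploids, above it on all 12. The diploid thus had the transcript pattern of a cell with both mating types.

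Values are deposited array signals after each array was scaled to one mean, and a signal is set against its own array only. Each array also holds 1746 probe sets designed for another yeast, and their 95th percentile, 4.6 to 7.58, served as that array's background limit. Levels of different genes are not compared, because probe sets differ in brightness. Across the 41 genes, 20 (48.8%) exceeded the limit on all 18 arrays, against 94.1% of all 5449 genes. Another 18 did so on some arrays, from 6 (MEK1 and DIT2) to 17. MEI5, HOP2 and SPO74 were above it on no array and were not tested. Mei5 helps load the meiotic recombinase, Hop2 aids homologue pairing and Spo74 sits in the meiotic spindle pole body plaque. The highest signal on any array was 3.2 for MEI5, 4.89 for HOP2 and 4.08 for SPO74. So 38 of the 41 genes entered the tests.

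**Figure D1:**
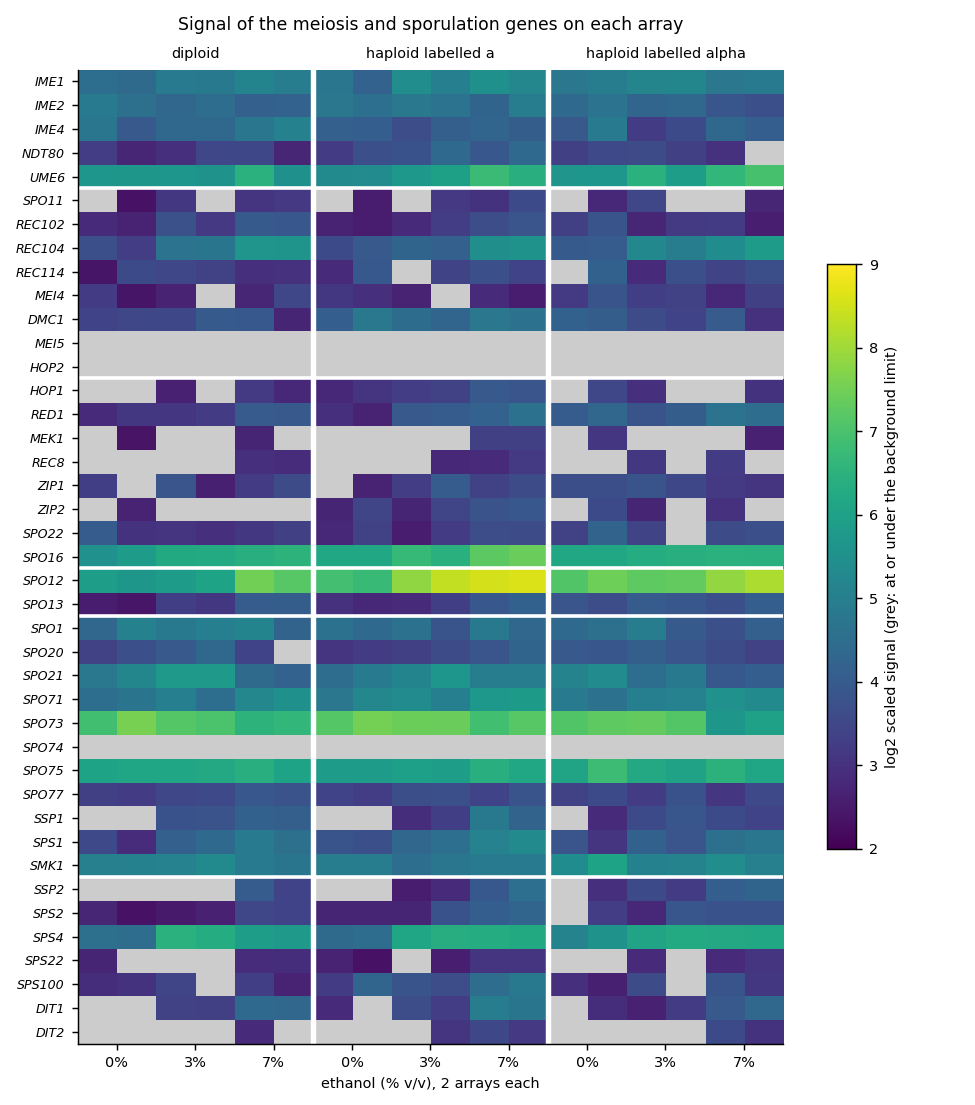
Scaled signal of the 41 genes (rows, by role: regulators, recombination, axis and synapsis, divisions, prospore membrane and kinases, spore wall and late genes) on the 18 arrays (columns, by strain and ethanol). Colour is the log2 scaled signal and grey marks a signal at or under that array's background limit; MEI5, HOP2 and SPO74 are grey throughout, and 20 rows hold no grey cell.

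More members stood above background at 7% ethanol than without it. The same count was not made over all genes, of which 48.3% of those tested were called higher at 7% than at 0%. It is therefore not a result about the members. The count per array was 26 to 35 (median 30.5) at 0%, 28 to 36 (median 32) at 3% and 34 to 38 (median 36) at 7%. By strain the median was 31 in the diploid, 34 in the haploid labelled a and 35 in the haploid labelled alpha, with ranges of 28 to 37, 31 to 38 and 26 to 36, so the strains overlapped. The 2 arrays of the haploid labelled a at 7% both held 38.

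Among the regulators, IME1 was well above background in every strain, haploids included. Its signals in the diploid were 23.2 and 21.5 at 0%, 30.3 and 28.7 at 3%, and 35.7 and 30.8 at 7% ethanol. In the haploid labelled a they were 26.9 and 18.3 at 0%, 43.3 and 32.5 at 3%, and 45.3 and 37.9 at 7%. In the haploid labelled alpha they were 27.6 and 30.9 at 0%, 36.3 and 36.9 at 3%, and 27.2 and 29.7 at 7%. The diploid, with almost no RME1 signal, had IME1 signals inside the range of the haploids, and the difference was -0.13 ± 0.07 on the log2 scale (diploid minus haploids, limma adjusted p = 0.135). Across strains IME1 was higher at 7% than at 0% by 0.31 ± 0.08 (adjusted p = 0.00139), though quantile normalization of the arrays turned the sign (-0.026). The rise at 3% was 0.32 ± 0.08 (adjusted p = 0.00211).

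IME2, the meiotic protein kinase that acts after Ime1, went the other way. Its signals were 21.1, 24.8 and 29.3 (lowest, median, highest of 6 arrays) at 0%, 19.6, 21.5 and 28 at 3%, and 13.1, 18 and 30.9 at 7%. It fell at 7% against 0% by 0.25 on the log2 scale (SE 0.08, adjusted p = 0.00727), with the groups overlapping because of 1 array of the haploid labelled a at 30.9. The fall passed the threshold in the diploid (-0.32 ± 0.14) and in the haploid labelled alpha (-0.40 ± 0.14), and the value in the haploid labelled a was -0.03.

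NDT80, the activator of the middle genes, lay close to background. Its signals were 6.69, 9.88 and 13 at 0%, 7.66, 11.8 and 21.1 at 3%, and 5.55, 9.68 and 21.2 at 7%, with 1 of 18 arrays under the limit. The 7% against 0% difference was 0.04 ± 0.09 (adjusted p = 0.683) and that of diploid minus haploids -0.19 ± 0.07 (adjusted p = 0.0512). UME6, the DNA-binding repressor, was at 40.8, 50.4 and 51.8 at 0%, at 47.2, 56.4 and 89 at 3%, and at 45.6, 94 and 125 at 7%. It rose by 0.72 ± 0.11 at 7% against 0% (adjusted p = 7.82e-06) and by 0.47 ± 0.11 at 7% against 3%. The rise at 7% passed the threshold in the haploid labelled a (0.97 ± 0.19) and in the haploid labelled alpha (0.93 ± 0.19), and the diploid gave 0.26 ± 0.19, with its 2 arrays at 89.2 and 45.6. IME4, an RNA methyltransferase needed for meiosis, was the only member called higher in the diploid over the mean of the ethanol levels. Its signals were 15.6, 23.6 and 33.8 in the diploid and 9.37, 17 and 29.7 over the 12 haploid arrays, which overlap, and the difference was 0.27 ± 0.08 (adjusted p = 0.0114). At 7% ethanol the diploid gave 27.1 and 33.8, above 19.3 and 16.6 in the haploid labelled a and 20.4 and 16.9 in the haploid labelled alpha.

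**Figure D2:**
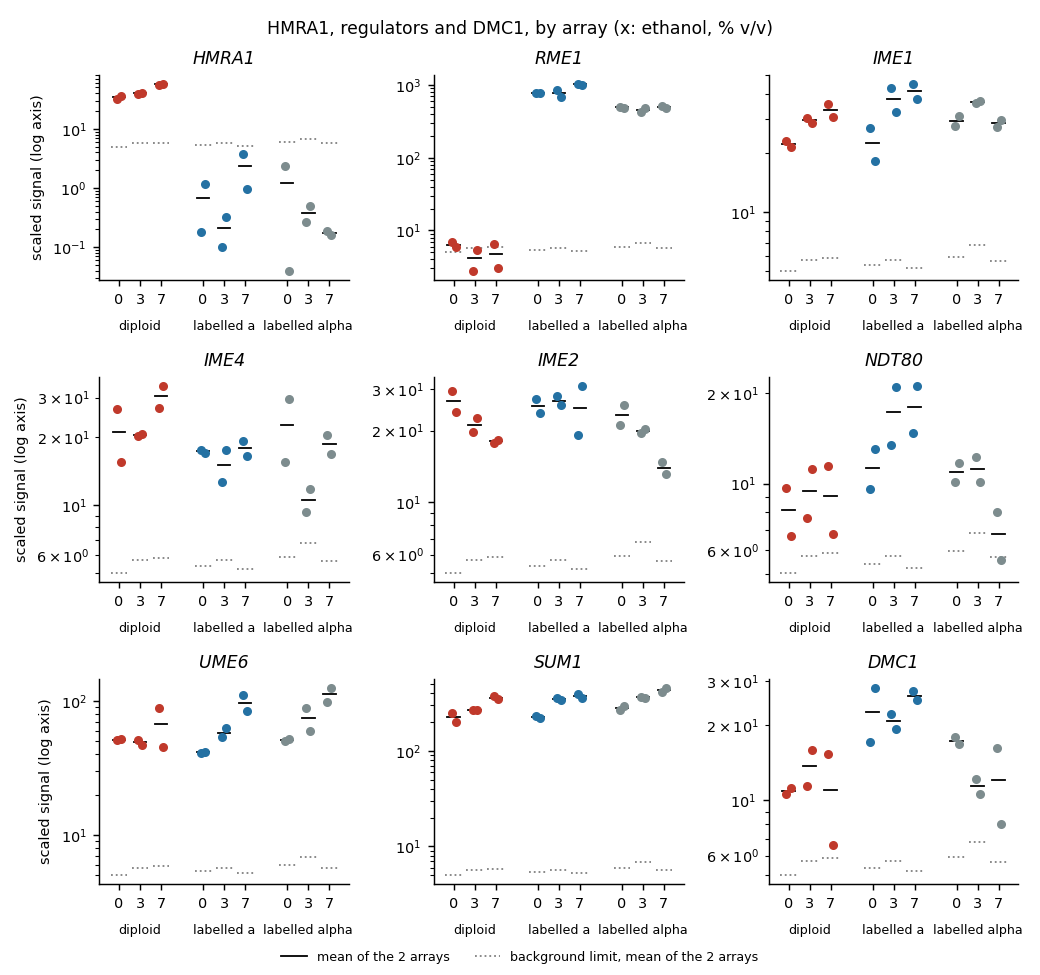
Scaled signal (y, log axis) of HMRA1, RME1, the 5 regulators, SUM1 and DMC1 on each array, by strain and ethanol (x, % v/v). Points are arrays, black bars the mean of 2 arrays and dotted lines the background limit; RME1 separates the diploid from the haploids, and IME1 does not.

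The diploid, the only strain with the transcript pattern of both mating types, was set against the mean of the haploids. The question was whether it also showed more of the meiotic programme while it divided. In the diploid 1 of the 38 genes tested was higher (IME4) and 10 were lower, where 15.8% of all 5363 genes tested were higher and 24.6% lower. The 10 are 26.3% of the 38, close to the share of all genes. The median difference of the 38 was -0.09, and that of all genes -0.03. Quantile normalization gave 4 higher and 3 lower members, and median centring 3 and 5; over all genes the split was 846 higher and 1317 lower, 1221 and 919 with quantile normalization, and 1329 and 858 with median centring. Leaving out 1 diploid array lowered the 10 to 6 (0% array 2 or 3% array 2) or 5 (7% array 2). Leaving out 7% array 2 of the diploid, either 3% array of the haploid labelled a or 3% array 1 of the haploid labelled alpha gave 2 higher in place of 1. IME4, RED1, SPO16 and SPO12 kept their call under every scaling tried.

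SPO12 had by far the largest difference. It acts in mitotic exit as well as in meiosis, so dividing cells use it too. Its signals in the diploid were 60.4 and 52.1 at 0%, 57 and 66.2 at 3%, and 182 and 146 at 7%. In the haploid labelled a they were 121 and 105, 228 and 327, and 376 and 394 at the same levels, and in the haploid labelled alpha 137 and 177, 154 and 160, and 235 and 281. At each ethanol level both diploid arrays lay under all 4 haploid arrays, which held for this member only and for 2.83% of all genes. The difference was -1.15 ± 0.08 over the levels (adjusted p = 1.34e-10), with -1.04 ± 0.13 at 0%, -1.53 ± 0.13 at 3% and -0.88 ± 0.13 at 7%. Level by level, the members called were 0 higher and 2 lower at 0% (7.42% and 10.6% of all genes), 1 higher and 2 lower at 3% (13.2% and 18.7%), and 1 higher and 5 lower at 7% (8.6% and 13.6%). The member higher at 3% belonged to the prospore membrane and kinase genes and was not IME4. In limma 8 members had an unadjusted p under 0.05 at 0%. Counts at an unadjusted p, here and below, were not made over all genes and are not results about the members.

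SPO16, a synapsis initiation protein, is the next gene to SPO12 on chromosome VIII and was lower in the diploid as well. It had 46.2, 77.2 and 91.3 (lowest, median, highest) in the diploid and 72.7, 86.3 and 168 in the haploids, a difference of -0.32 ± 0.06 (adjusted p = 0.000179). RTT107, the gene on the far side of SPO16, was lower in the diploid by -0.74 (adjusted p = 1.24e-07), and MTC6, on the far side of SPO12, gave -0.11 (adjusted p = 0.123). These neighbours were looked at after the values of SPO12 and SPO16 were seen.

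DMC1, the meiotic recombinase, is known as an early meiotic gene, yet its signal exceeded the limit on all 18 arrays. It had 6.61, 11.3 and 15.9 in the diploid and 8, 17.5 and 28.1 in the haploids, a difference of -0.29 ± 0.08 (adjusted p = 0.00885). RED1, a component of the meiotic chromosome axis, had 7.28, 9.16 and 16.2 in the diploid and 6.44, 16.6 and 25.2 in the haploids (-0.28 ± 0.06, adjusted p = 0.00102). SPS100, a spore wall maturation gene, had 4.88, 7.85 and 11.1 in the diploid and 6.11, 12.6 and 28.3 in the haploids (-0.27 ± 0.08, adjusted p = 0.0143). In all 3 the diploid and haploid ranges overlapped, and the high haploid values of DMC1 and SPS100 came from the haploid labelled a. UME6 (-0.25), ZIP2 (-0.24), HOP1 (-0.20), SSP2 (-0.19) and SPO71 (-0.18) completed the 10. ZIP2 was above the limit on 1 of 6 diploid and 9 of 12 haploid arrays. It entered the tests only through the haploid arrays, so its call is not independent of that filter. No member had all 6 diploid arrays outside the range of the 12 haploid arrays, which 1.1% of all genes did on the lower side and 0.149% on the higher side. On the higher side at each level separately the share of all genes was 1.19%, with no member.

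**Figure D3:**
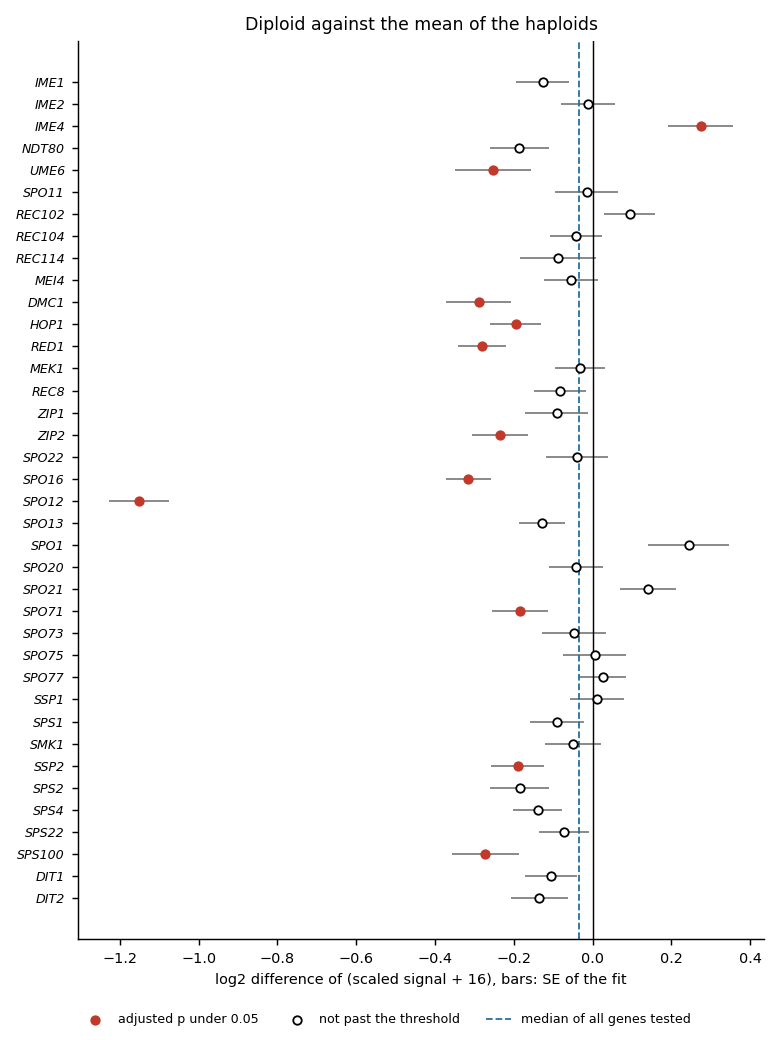
Difference between the diploid and the mean of the haploids for the 38 genes tested (x, log2 scale of scaled signal plus 16, bars SE of the fit, rows by role). Filled points pass the adjusted threshold of 0.05; SPO12 at -1.15 stands apart, 10 points are filled on the left and IME4 on the right.

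At 7% against 0%, averaged over the strains, 19 of the 38 genes rose and 4 fell, where 48.3% of all genes tested rose and 22.3% fell. The members' share of rises is near that of all genes and is not a result about the members, while their share of falls was 10.5%. The median of the 38 was 0.18, and that of all genes 0.13, so a change of that size is no departure from the array as a whole. Quantile normalization, which moves the median of all genes to -0.001, gave 14 rises and 10 falls, median centring gave 14 and 9, and no scaling 16 and 4. Over all genes the split was 2592 rises and 1196 falls, 1866 and 1845 with quantile normalization, 1619 and 2202 with median centring, and 1869 and 1369 with no scaling. The 13 members that rose under every scaling tried were UME6, REC104, RED1, REC8, SPO16, SPO12, SPO13, SSP1, SPS1, SSP2, SPS2, SPS4 and DIT1, and all 4 falls held too. Of the 13, REC8, SSP1 and SSP2 met the filter of 2 arrays above background only through arrays with ethanol. Their rises are not independent of that filter. Whether a change comes from RNA per cell or from a few cells with much RNA cannot be told apart in bulk samples.

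Most of these genes are dim. With a mean signal under 50, 15 of 32 members rose and 3 fell, where 55.7% of the 826 genes tested in that range rose and 8.72% fell. At 50 or more, 4 of 6 members rose and 1 fell, where 47.0% of all such genes rose and 24.8% fell. The 1746 probe sets for another yeast, which show what background alone does, had a median change of 0 with 95% of them between -0.11 and 0.13. The 16 added to each signal before log2 makes the changes of dim genes smaller than the ratio of their signals.

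**Figure D4:**
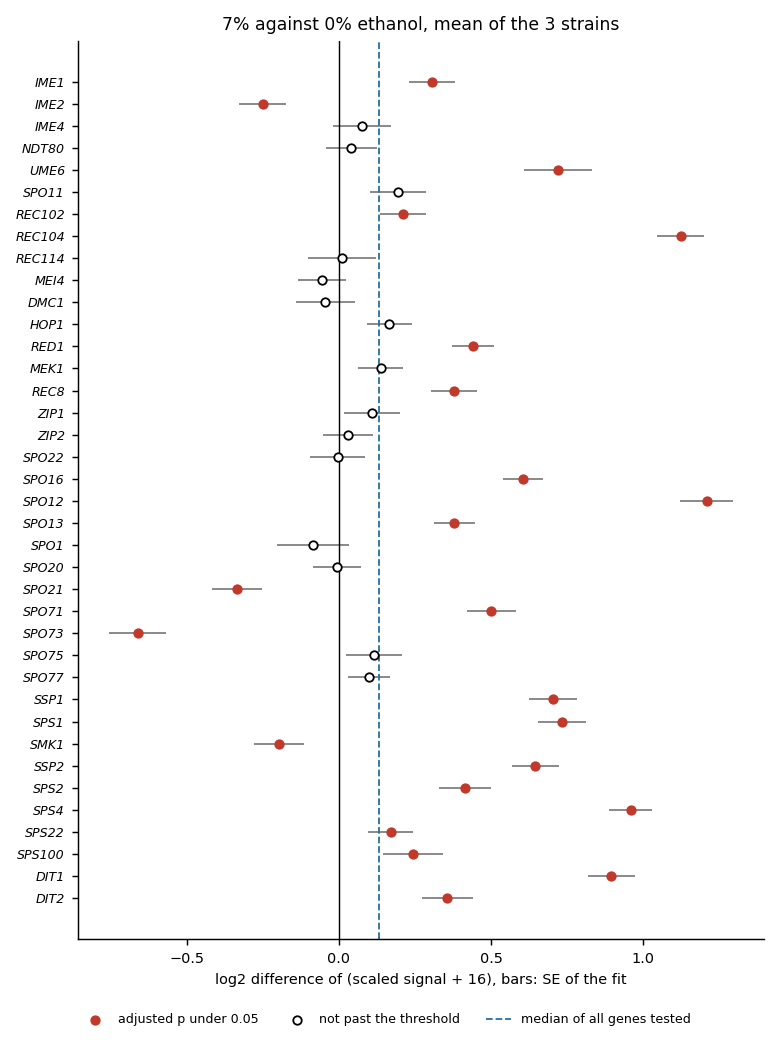
Change at 7% against 0% ethanol, mean of the 3 strains, for the 38 genes tested (x, log2 scale of scaled signal plus 16, bars SE of the fit, rows by role). Filled points pass the adjusted threshold of 0.05 and the dashed line is the median of all genes tested (0.13); 19 filled points lie to the right of 0 and 4 to the left.

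By role, 7 of 7 spore wall and late genes were called higher at 7%. Of all genes tested 48.3% were higher and 22.3% lower, and of those with a mean signal under 50 55.7% were higher. SSP2, SPS2, SPS4 and DIT1 held under every scaling, while SPS22 and SPS100 changed sign with quantile normalization. DIT2 and SSP2 entered the tests only through arrays with ethanol. The division genes had 2 of 2 higher. Recombination genes had 2 of 6 higher, axis and synapsis genes 3 of 8, regulators 2 of 5 with 1 lower, and prospore membrane and kinase genes 3 higher and 3 lower of 10. The groups are small, and no test of one role against another was made.

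REC104, one of the proteins needed for the meiotic double-strand breaks, had the clearest stepwise rise among the recombination genes. Its signals were 9.74, 14.3 and 16.4 (lowest, median, highest) at 0%, 17.6, 26.1 and 38.3 at 3%, and 42, 48.5 and 58.6 at 7%, with no overlap between the levels. The change was 1.12 ± 0.08 at 7% against 0% (adjusted p = 4.08e-11) and 0.50 ± 0.08 at 3% against 0%. It rose at 7% in the diploid (1.26 ± 0.13), in the haploid labelled a (1.07 ± 0.13) and in the haploid labelled alpha (1.03 ± 0.13). Its partner REC102 rose by only 0.21 ± 0.07 (5.77 to 14.1 at 0%, 5.99 to 15.8 at 7%). SPO11 (0.19), the break-forming enzyme itself, REC114 (0.01), MEI4 (-0.06) and DMC1 (-0.04) did not pass the test.

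Of the axis and synapsis genes, SPO16 had 46.2, 72.7 and 72.8 at 0%, 76.5, 83.3 and 104 at 3%, and 83.3, 89.9 and 168 at 7% (0.60 ± 0.07, adjusted p = 7.01e-08). RED1 rose by 0.44 ± 0.07. REC8, the meiotic cohesin, was above the limit on 0 of 6 arrays at 0%, 2 of 6 at 3% and 5 of 6 at 7%, and its mean at 7% was at least 1.39-fold higher than the limit allows at 0%. REC8 and DIT2 entered the tests only through arrays with ethanol, so their calls are not independent of that filter. The same holds for SSP1 and SSP2, each above the limit on 1 of 6 arrays at 0%, where the filter asked for 2. HOP1 (0.17), MEK1 (0.14), ZIP1 (0.11), ZIP2 (0.03) and SPO22 (-0.00) did not pass. SPO22 and HOP1 are neighbours on chromosome IX.

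SPO12 rose in all 3 strains. Over the strains its lowest, median and highest signals were 52.1, 113 and 177 at 0%, 57, 157 and 327 at 3%, and 146, 258 and 394 at 7%. The change was 1.21 ± 0.09 at 7% against 0% (adjusted p = 1.25e-10) and 0.78 ± 0.09 at 7% against 3%, with 1.31 ± 0.15 in the diploid, 1.64 ± 0.15 in the haploid labelled a and 0.67 ± 0.15 in the haploid labelled alpha. Within each strain both 7% arrays lay above both 0% arrays. SPO13, which keeps sister chromatids together in the first meiotic division, had 5.41, 7.44 and 14.5 at 0%, 7.25, 9.82 and 16.3 at 3%, and 13.2, 16.6 and 18 at 7% (0.38 ± 0.07, adjusted p = 5.19e-05).

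The prospore membrane and kinase genes split. SPS1, a protein kinase of spore formation, had 7.38, 12.3 and 14.5 at 0%, 14.3, 18.9 and 23.5 at 3%, and 24, 28.2 and 40.3 at 7% (0.73 ± 0.08, adjusted p = 6.52e-08), with 7% above 0% on every array. SSP1, a leading-edge protein of the prospore membrane, had 1.12, 4.71 and 7.17 at 0%, 7.54, 12.8 and 14.6 at 3%, and 10.6, 17.7 and 28.4 at 7% (0.70 ± 0.08, adjusted p = 9.88e-08). In the diploid, where both 0% arrays were under the limit, SSP1 was at least 3.52-fold higher at 7%, and in the haploid labelled a at least 4.31-fold. SPO71, another prospore membrane protein, rose by 0.50 ± 0.08.

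SPO73, needed for prospore membrane extension, fell. Its signals were 118, 148 and 190 at 0%, 130, 152 and 171 at 3%, and 52.3, 95.1 and 146 at 7%, so 3% was like 0% and the fall came at 7% (-0.66 ± 0.09 against 0%, adjusted p = 2.9e-06). The lowest pair was the haploid labelled alpha at 52.3 and 63.9, and the change there was -1.13 ± 0.16, with -0.58 ± 0.16 in the diploid and -0.27 in the haploid labelled a, which did not pass. SPO21, of the meiotic spindle pole body plaque, had 22.5, 32.4 and 41.2 at 0%, 22.9, 43.6 and 55 at 3%, and 15.1, 20 and 31.5 at 7%. It rose at 3% by 0.22 ± 0.08 (adjusted p = 0.0326) and fell at 7% against 0% by 0.34 (SE 0.08, adjusted p = 0.00114), but at 3% the diploid gave 54.3 and 55, the haploid labelled a 35.7 and 51.5 and the haploid labelled alpha 22.9 and 28.3. SMK1, the kinase of spore wall assembly, fell by 0.20 (SE 0.08, adjusted p = 0.038) with 31.3, 33.4 and 66.7 at 0%, 23.3, 34.2 and 40.2 at 3%, and 26.6, 29.8 and 43.3 at 7%. The members SPO1 (-0.08), SPO20 (-0.01), SPO75 (0.12) and SPO77 (0.10) did not pass.

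Among the spore wall and late genes, SPS4, induced late in sporulation, was higher at 3% than at 0% in all 3 strains and showed no further rise at 7%. Its signals were 21.5, 23.3 and 48 at 0%, 67.9, 79.1 and 88.9 at 3%, and 55.1, 74.1 and 81.2 at 7%, so the 0% arrays lay under all others. The change was 1.08 ± 0.07 at 3% (adjusted p = 3.35e-10) and 0.96 ± 0.07 at 7% against 0% (adjusted p = 2.02e-10), and 7% against 3% gave -0.13 ± 0.07 (adjusted p = 0.141). In the diploid alone it fell at 7% against 3% (-0.46 ± 0.12, adjusted p = 0.00487), with 59.7 and 55.1 at 7% and 88.9 and 81 at 3%, and the haploids gave 0.05 (labelled a) and 0.03 (labelled alpha). DIT1, an enzyme of the dityrosine layer of the spore wall, rose in steps: 0.92, 4.28 and 7.58 at 0%, 6.19, 9.84 and 12.5 at 3%, and 15.6, 20.5 and 30.6 at 7% (0.90 ± 0.08, adjusted p = 1.6e-09). In the diploid it was under the limit on both 0% arrays and at least 4.08-fold higher at 7%. DIT2, the adjacent gene of the same pathway on chromosome IV, was above the limit on 0 of 6 arrays at 0%, 1 of 6 at 3% and 5 of 6 at 7%, and at least 1.61-fold higher at 7%. SSP2, which activates Smk1, had 3.96, 4.56 and 7.69 at 0%, 4.78, 6.42 and 11.8 at 3%, and 10.6, 16.8 and 23.6 at 7% (0.65 ± 0.08, adjusted p = 3.07e-07). The spore wall genes SPS2 (0.41 ± 0.09), SPS100 (0.24 ± 0.10) and SPS22 (0.17 ± 0.07) changed less. SPS100 turned to -0.032 with quantile normalization, and SPS22 turned to -1.3e-05 with quantile normalization and -0.031 with median centring.

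**Figure D5:**
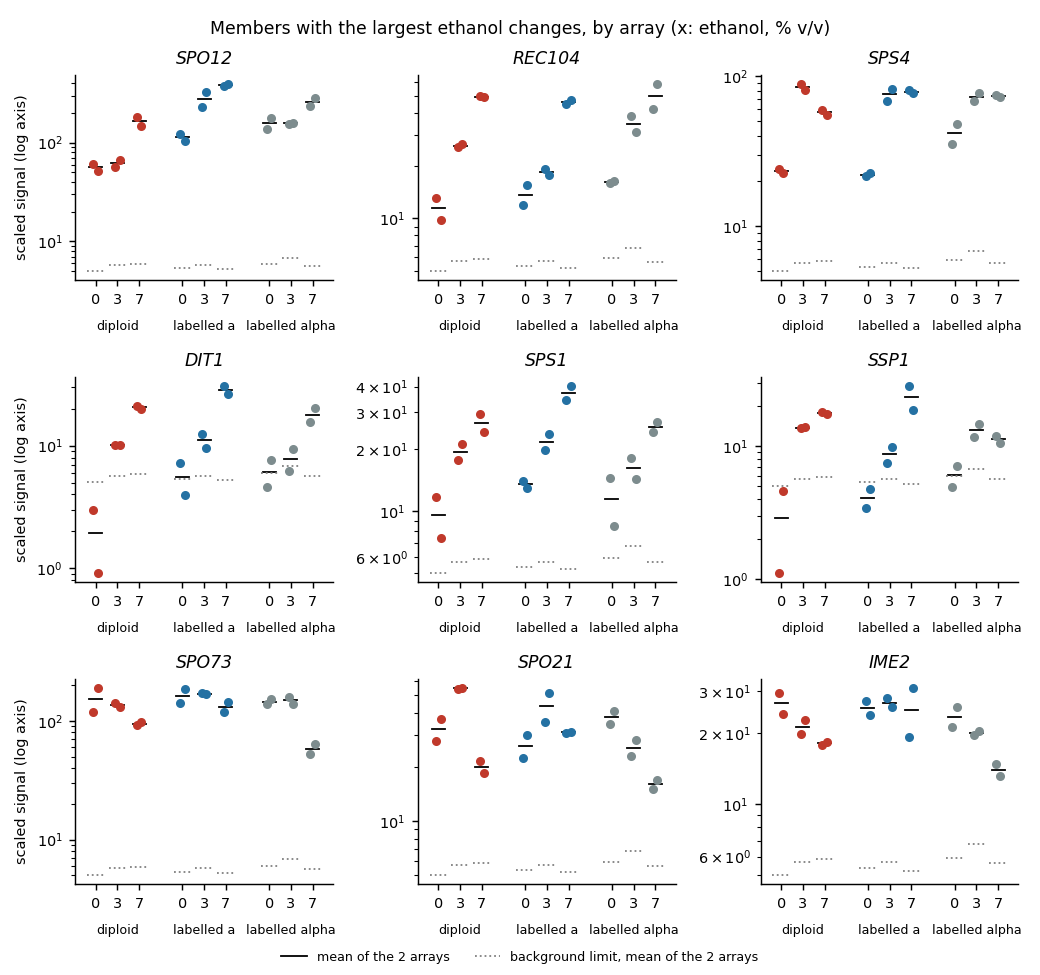
Scaled signal (y, log axis) of 6 members that rose and 3 that fell at 7% ethanol, on each array, by strain and ethanol (x, % v/v). Points are arrays, black bars the mean of 2 arrays and dotted lines the background limit; REC104 and DIT1 climb with each level, SPS4 is already high at 3%, and SPO73 falls at 7%.

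Arrays did not overlap between 7% and 0% for 10 of the 38 genes, REC104, SPO16, SPO71, SSP1, SPS1, SSP2, SPS2, SPS4, SPS22 and DIT1, with 7% higher in each, which 18.5% of all genes showed. SSP1 and SSP2 entered the tests only through arrays with ethanol, so their place in this count is not independent of that filter. On the lower side it was 0 of 38, against 8.28% of all genes. For 3% above 0% it was 4 of 38 (REC104, SPO16, SSP1 and SPS4), against 2.61% of all genes, and 0 on the lower side, against 2.2%. For 7% above 3% it was 4 of 38 (REC104, SPS1, SPS22 and DIT1), against 8.71% of all genes, and 0 on the lower side, against 4.72%. At 3% against 0%, 10 of the 38 were higher and 0 lower, where 32.0% of all genes were higher and 17.3% lower. In limma 15 members had an unadjusted p under 0.05 in either direction, a count not made over all genes. Leaving out array 1 of the haploid labelled alpha at 0% gave 3 lower, and array 2 of the diploid at 0% gave 2. Quantile normalization gave 8 higher and 5 lower, and median centring 9 and 3. Over all genes the split was 1716 higher and 929 lower, 1238 and 1209 with quantile normalization, and 1171 and 1310 with median centring. After SPS4 and REC104 the largest of the 10 were SSP1 (0.46 ± 0.08), SPO12 (0.43 ± 0.09) and SPS1 (0.35 ± 0.08). At 7% against 3%, 16 were higher and 2 lower (SPO21, -0.56, and SPO73, -0.65), where 38.0% of all genes were higher and 18.3% lower. Quantile normalization gave 6 higher and 8 lower, and median centring 8 and 7. Over all genes the split was 2038 higher and 982 lower, 1516 and 1468 with quantile normalization, and 1219 and 1769 with median centring. SPO12, REC104 (0.63 ± 0.08), DIT1 (0.57 ± 0.08), SSP2 (0.50 ± 0.08) and UME6 led the 16.

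Within single strains at 7% against 0%, the diploid had 14 of 38 higher and 3 lower, where 36.5% of all genes were higher and 20.0% lower. The haploid labelled a had 21 higher and 0 lower (48.4% and 15.1% of all genes), with 24 members at an unadjusted p under 0.05 in limma. The haploid labelled alpha had 8 higher and 4 lower (26.9% and 19.9% of all genes). REC104, SPO12, SPO71, SPS1, SSP2, SPS4 and DIT1 rose in each of the 3 strains, 7 of 38, where 19.3% of all genes did. None fell in each of the 3, where 9.21% of all genes did. At 3% against 0%, the diploid had 7 of 38 higher and 0 lower (12.4% and 7.96% of all genes), led by SPS4 (1.36), SSP1 (0.67) and REC104 (0.62). The haploid labelled a had 8 higher and 0 lower at 3% (31.5% and 12.0% of all genes), led by SPS4 (1.27) and SPO12 (1.17). The haploid labelled alpha had 3 higher and 2 lower at 3% (12.6% each of all genes), namely REC104 (0.66), SPS4 (0.63) and SSP1 (0.41), and IME4 (-0.51) and SMK1 (-0.47). In limma the members with an unadjusted p under 0.05 at 3% were 7 in the diploid and 11 in the haploid labelled a. The change at 7% was tested for a difference between diploid and haploids, and limma called 0 of 38 (4.77% of all genes were called higher and 4.44% lower), with 3 members at an unadjusted p under 0.05. At 3% it called 0 as well (4.01% of all genes higher and 4.96% lower), with 4 at an unadjusted p under 0.05. Leaving out array 1 of the diploid at 7% gave 1 call at 7%. At 3%, leaving out array 1 of the haploid labelled alpha at 0% gave 2 calls, and leaving out either 3% array of the haploid labelled a gave 1. Between the haploids, the change in the haploid labelled a minus that in the haploid labelled alpha was positive for 12 of 38 and negative for 0 at 7% (30.5% and 7.4% of all genes), and positive for 4 and negative for 0 at 3% (15.3% and 3.6% of all genes). In limma 18 members at 7% and 5 at 3% had an unadjusted p under 0.05 in that test. With quantile normalization 1 positive call was left at each level, that of SPO12. Over all genes that scaling gave 548 positive and 558 negative calls at 7%, and 349 and 272 at 3%. Over all levels, the haploid labelled a had 12 of 38 members higher and 6 lower than the haploid labelled alpha (27.8% and 34.3% of all genes), with SPO73 (0.43), DMC1 (0.41) and SPS100 (0.40) the highest and SMK1 (-0.36) the lowest.

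The other genes of meiosis and spore formation form a list of 80 genes that shares none with the members. Of the 75 tested, 49 (65.3%) were higher and 7 (9.33%) lower at 7% against 0%, where 48.3% of all genes were higher and 22.3% lower. Among all genes with a mean signal under 50, 55.7% were higher and 8.72% lower. This list was not counted under the other scalings. The median was 0.31, and that of all genes 0.13. At 3% against 0%, 27 (36.0%) were higher and 6 (8.0%) lower, where 32.0% and 17.3% of all genes were. The largest rises at 7% were those of GAS2, a spore wall glucan enzyme (1.12 ± 0.09), MAM1, which orients sister kinetochores in the first meiotic division (0.99 ± 0.08), SMA2, a prospore membrane gene (0.99 ± 0.08), and RAD54, a DNA repair translocase (0.91 ± 0.08). MAM1 had 0.921, 2.95 and 5.04 at 0%, under the limit on all 6 arrays, and 14.4, 20.3 and 29.1 at 7%, at least 3.96-fold higher. Like REC8 and DIT2, MAM1 entered the tests only through arrays with ethanol, so its call is not independent of that filter. The same holds for SPO19 and SPR3, above the limit on 0 of 6 arrays at 0%, and for GMC2, on 1 of 6. The largest falls were MCK1, a kinase that promotes meiotic entry (-0.61 ± 0.05), RRT8, of the dityrosine layer (-0.60 ± 0.06), RIM13, a protease of the pH response (-0.50 ± 0.08), and RIM101, its target and a repressor (-0.29 ± 0.07). SUM1, the repressor of middle genes and named after its values were seen, had 201, 240 and 296 at 0%, 266, 349 and 370 at 3%, and 350, 381 and 455 at 7% (0.64 ± 0.06, adjusted p = 3.51e-09).

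In the diploid against the haploids, 2 of these 75 were higher and 22 lower, the 22 being 29.3% where 24.6% of all genes were lower. The largest falls were RME1 (-4.97 ± 0.06) and RDH54, a recombination translocase (-2.24 ± 0.06), followed by CHS3, a chitin synthase (-0.55 ± 0.05), and MSH5, a crossover factor (-0.45 ± 0.06). RDH54 had 15.1, 24.1 and 33.7 in the diploid and 126, 172 and 208 in the haploids, with no overlap. RIM101 (0.28 ± 0.06) and RAD52, of recombinational repair (0.28 ± 0.06), were the 2 higher in the diploid.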

How the data were processed

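The authors deposited 1 linear signal intensity per probe set and array, made with GCOS per the submitters' processing notes. Its version and target value are not stated there. Total RNA was extracted with hot phenol and labelled with biotin, per the labels' protocols. The table has 10928 probe sets, of which 5498 read 1 S. cerevisiae gene. The 2% trimmed mean of an array's S. cerevisiae probe sets ran from 368.5 to 521.5, and each array was multiplied by 0.84 to 1.19 to make it equal. Genes above the background limit on at least 2 arrays were tested, 5363 of 5449. The brightest probe set stood for a gene. The number of arrays limits the precision, and duplicate arrays had an SD of 0.116 to 0.158 (log2, by group).

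Log2(scaled signal + 16) was fitted with limma 3.58.1 (R 4.3.3; lmFit, eBayes with an intensity trend), with 9 group means, 9 residual degrees of freedom and two-sided Benjamini-Hochberg adjustment over the 5363 genes at a threshold of 0.05. Errors after ± are SE of the fit. "Rose", "fell", "higher" and "lower" in counts mean past that threshold. A fold is a lower bound where 1 side lay at or under the limit on all its arrays. The fit was tested on simulated data. Members and lists were chosen with earlier results of these data known, and the division at a mean signal of 50 was chosen after seeing the data. Signals are given, by array or as lowest, median and highest, for the regulators and the 5 largest called changes in each direction of a main comparison. From the other meiosis genes the 4 largest are named. Gene order and synonyms came from RefSeq's R64 table, and 12 symbols were updated. Alternatives were other scalings, pseudocounts, filters and limits, a replicate block, no trend, leaving out arrays or strains, and each haploid alone. The replicate numbers were not used as pairs, because the labels do not say what a number shares. In 36 pairs of groups the correlation of their deviations was -0.25 to 0.18, with 11 over 0.1 and 7 under -0.1. These values cannot show whether the samples were paired.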

Additional observations from a re-analysis of the deposited data

Results flagged for a closer look

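The ethanol changes of several members differed between the 2 haploid strains by the test of the difference itself (limma, change in the haploid labelled a minus change in the haploid labelled alpha). At 7% ethanol 12 of 38 were called, and all were positive, where 30.5% of all genes were called positive and 7.4% negative and the median of all genes was 0.21. The members' share of 31.6% is near that of all genes and is not a result about the members. Quantile normalization gave 1 positive call and median centring 3. IME1 differed by 0.61, NDT80 by 0.56 and REC102 by 0.67. HOP1 differed by 0.57, RED1 by 0.47 and SPO16 by 0.76. SPO12 differed by 0.97, with signals of 376 and 394 in the haploid labelled a and 235 and 281 in the haploid labelled alpha at 7%. SPO20 differed by 0.59 and SSP1 by 0.66. SPO21 differed by 0.92 and SPO73 by 0.86, and in both the haploid labelled alpha fell (-0.75 and -1.13) while the values in the haploid labelled a were 0.17 and -0.27. SPS4 differed by 0.67. At 3% ethanol 4 of 38 were called, where 15.3% of all genes were called positive and 3.6% negative and the median of all genes was 0.12. These were RED1 (0.59), SPO12 (1.16), SPO21 (0.86) and SPS4 (0.64), and 2 were left without array 2 of the haploid labelled alpha at 0%, without its array 1 at 3% or without array 2 of the haploid labelled a at 3%. SPO12 is the 1 member called under each scaling at both levels. Groups of 2 arrays are too small for a test of single outlying arrays.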

How the results depend on the processing

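Among called single genes, 2094 of the alternative values kept direction and side of the threshold, 239 lost the call and 4 changed sign at 7% against 0%: IME1 (-0.026), SPS22 (-1.3e-05) and SPS100 (-0.032) with quantile normalization, and SPS22 (-0.031) with median centring. The calls lost most often were SPS22 at 7% against 0% (21 of 30 alternatives) and at 7% against 3% (14 of 30), SPO71 and UME6 in the diploid (16 of 30 each), SPO21 at 3% (13 of 31), SPS100 at 7% against 0% (12 of 31), SMK1 at 7% against 0% (11 of 31) and SSP2 in the diploid (11 of 29). The cause of these losses was not tested.

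Quantile normalization gave 10 members lower at 7% against 0%, 5 lower at 3% against 0%, 6 higher and 8 lower at 7% against 3%, and 4 higher and 3 lower in the diploid. For the haploid labelled a minus that labelled alpha it gave 1 higher at 7%, and 1 higher and 1 lower at 3%. Median centring gave, for the same results, 9 lower, 3 lower, 8 higher and 7 lower, 3 higher and 5 lower, 3 higher, and 2 higher and 1 lower. Between the haploids it gave, over all genes, 610 higher and 1111 lower at 7%, and 326 and 579 at 3%. Without scaling, 2 were higher in the diploid, 1 change at 7% was lower in the diploid than in the haploids, and 2 changes at 3% were higher between the haploids. Over all 5363 genes these counts were 591, 94 and 312. Keeping genes with a mean signal above 2 times the mean limit left 22 members tested, with 12 higher at 7% against 0% and 10 at 7% against 3%. Of the 5207 genes then tested, 2528 and 2000 were higher. Without the trend, 1 was lower at 3% (914 of all genes). Without the diploid, 2 were lower at 7% against 0% and 2 at 3% (992 and 802 of all genes). Without the haploid labelled alpha, 1 was lower at 7% against 0% (1066 of all genes). Without the haploid labelled a, 10 were higher at 7% against 3% (1714 of all genes). Against the haploid labelled alpha alone, the diploid had 2 higher (1100 of all genes). At the 99th percentile limit 13 members lay above it on all arrays.

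Leaving out 1 array at a time gave 17 to 20 higher and 3 to 4 lower at 7% against 0%, 9 to 11 higher and 0 to 3 lower at 3%, and 14 to 18 higher and 2 to 3 lower at 7% against 3%. The diploid then had 1 to 2 higher and 5 to 12 lower. Changes that differed between diploid and haploids were 0 higher and 0 to 1 lower at 7%, and 0 to 2 higher and 0 to 1 lower at 3%. Between the haploids they were 8 to 14 higher at 7% and 2 to 6 higher at 3%. With the replicate block, 19 rose and 4 fell at 7% against 0%, and the diploid had 11 lower (2586, 1201 and 1342 of all genes). The replicate block moved no count by more than 1.5 times, and 11 of the 36 pairs of groups had a correlation over 0.1. For these arrays the signal over background is the limit: 21 of the 41 genes were at or under it on at least 1 array.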
